A study of Mus musculus with 15 samples.

Results

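The genes described here are 7 core components of the Hedgehog signalling pathway: Ptch1, Smo, Sufu, Gli1, Gli2, Gli3 and Hhip. They were chosen by name from the 46603 genes counted in each library. Of the 7, 6 passed the expression filter and were tested among 15296 genes, and Hhip did not pass it. RNA was sequenced from mouse embryonic fibroblasts of the BALB/c strain, taken per the labels from embryos of 10.5 days, that were knockout (KO), heterozygous (HET) or wild type (WT) for Actb, the gene of beta-actin. The 15 libraries form 5 groups of 3: KO at day 14, HET at day 14, WT at day 14, KO at day 4 and WT at day 4. Every group, WT included, was grown to confluence on Matrigel and then kept, from day 0, in OsteoMax-XF medium with dexamethasone and forskolin, each at 5 mM as the labels state it. No untreated cells and no HET cells of day 4 were analysed here, so a change with time cannot be told apart from a change with treatment. The labels call the cells osteoblasts made by chemical reprogramming. They number the replicates but name no embryo or culture, so p-values measure the spread between these libraries, which may be technical, and the origin of the cells cannot be told apart from the genotype.

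Hedgehog signalling passes through the primary cilium. The receptor Ptch1 holds the membrane protein Smo inactive until a secreted ligand (Shh, Ihh or Dhh) binds Ptch1, and active Smo then releases the transcription factors Gli2 and Gli3 from their inhibitor Sufu. Gli2 acts mainly as an activator and Gli3 mainly as a repressor, while Gli1 is an activator whose own gene, like Ptch1 and Hhip, is a direct target of the pathway and a common readout of it. Protein kinase A, the kinase that cyclic AMP and thus forskolin switches on, phosphorylates Gli2 and Gli3 and favours their repressor forms. In the skeleton, Ihh from cartilage directs the first osteoblasts of long bones.

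Depth, in M of reads counted in genes, was 21.5 to 24.8 for the KO libraries, 19.9 to 22.2 for HET and 20.02 to 20.42 for WT at day 14, and 30.7 to 35.7 for KO and 25.7 to 47.5 for WT at day 4. Actb followed the labels in every library, at 43.0 to 46.5 CPM (counts scaled to a library size of 1 M) in KO, 1440 to 1640 in HET and 2950 to 3070 in WT at day 14, and at 130 to 139 in KO and 1160 to 1190 in WT at day 4. HET replicate 2 stood apart: between it and the other HET libraries the chi-square per degree of freedom was 45.6 and 45.8, against 2.81 between those 2. Between the WT libraries of day 14 it was 9.02, 17 and 4.73, and in the remaining groups from 2.15 to 2.9. HET replicate 2 also had the highest ribosomal protein share, at 4.73% of counts, against 3.29% and 3.33% in the other HET libraries. Its share of counts in genes with at least 5000 bases of exons was the lowest, at 38.1% against 45.2% and 44.9%. Among the WT libraries of day 14 this share of long genes was 43.3%, 40.8% and 39.3%, and in the 9 other libraries it was between 46.2% and 50.4%. All members but Gli1 are such long genes. The summed osteoblast markers (6 genes) stood at 1020 to 1050 CPM in KO, 1470 to 1770 in HET and 1100 to 1210 in WT at day 14, and at 822 to 826 in KO and 195 to 206 in WT at day 4, nearly all of it from Col1a1, Alpl and Runx2. Of the others, Ibsp had 3 counts over the WT libraries of day 14 and none elsewhere, Sp7 had at most 4 counts over any group, and Bglap at most 25. Col1a1 made up most of the sum, averaging 971 CPM in KO, 1610 in HET and 1000 in WT at day 14. The markers disagreed: Alpl averaged 32.0, 8.29 and 128 CPM there, lowest in HET, and Runx2 31.8, 30.6 and 20.6, lowest in WT. At day 4 Col1a1 was higher in KO than in WT (770 against 107 CPM). Alpl (3.39 against 22.0) and Runx2 (50.8 against 71.2) were lower there. The sum therefore does not rank the groups as osteoblasts. The summed smooth muscle markers (4 genes) stood at 497 to 519 CPM in KO, 75.8 to 89.2 in HET and 28.3 to 30.9 in WT at day 14, and at 2320 to 2330 in KO and 2.4 to 2.68 in WT at day 4. At day 14 most of it was Acta2, at 489 CPM in KO, 75.0 in HET and 25.9 in WT. In KO, Tagln and Cnn1 were also higher than in WT at day 14, while Myh11 had 9 counts against 12. In HET against WT, Tagln was also higher (0.695, edgeR adjusted p = 0.000309). Cnn1 was lower, with 1 count against 23 (edgeR adjusted p = 0.00851), and Myh11 had 6 counts against 12. The summed fibroblast markers (5 genes) stood at 123 to 130 CPM in KO, 876 to 924 in HET and 643 to 648 in WT at day 14, and at 222 to 229 in KO and 622 to 634 in WT at day 4. Most of the fibroblast sum in WT is Dcn (503 CPM at day 14), and single markers went against it: Pdgfra was higher in KO at day 14 by 0.66 on the log2 scale (edgeR adjusted p = 4.83e-06) and Pdgfrb was higher in KO at day 4 by 1.79 (edgeR adjusted p = 4.03e-10). Thy1 had at most 16 counts over any group and Lum at most 7. These sums move with genotype, and their part in the results below was not tested. In bulk RNA, fewer cells of a type and less RNA per cell cannot be told apart.

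Per kb of exons, Smo was the most abundant member in 4 of the 5 groups, with 8.54 ± 0.541 CPM per kb in KO, 10.1 ± 2.46 in HET and 17.1 ± 1.40 in WT at day 14, and 20.1 ± 0.034 in the KO libraries of day 4 (SD, n = 3 libraries in every group, for levels here and below). After a log2 difference, change or interaction, ± gives the SE of the fit and not an SD. In WT at day 4, Gli3 came first with 10.4 ± 0.196 CPM per kb, and Smo, at 10.1 ± 0.527, overlapped it. Sufu came next in those 4 groups, from 6.99 ± 0.095 CPM per kb in KO at day 14 to 9.49 ± 1.60 in HET, whose libraries overlapped those of Smo. Ptch1 lay between 1.53 and 2.87 CPM per kb in all groups and could not be parted from Gli3 in WT at day 14 or from Gli2 in WT at day 4. HET cells differed in their order, with Gli2 in the third place at 4.08 ± 1.15 CPM per kb, overlapping Gli3 at 3.64 ± 1.04. Gli1 was far below the other tested members, from 0.044 ± 0.024 CPM per kb in KO at day 14 to 0.427 ± 0.048 in KO at day 4, and Hhip was last throughout.

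**Figure D1:**
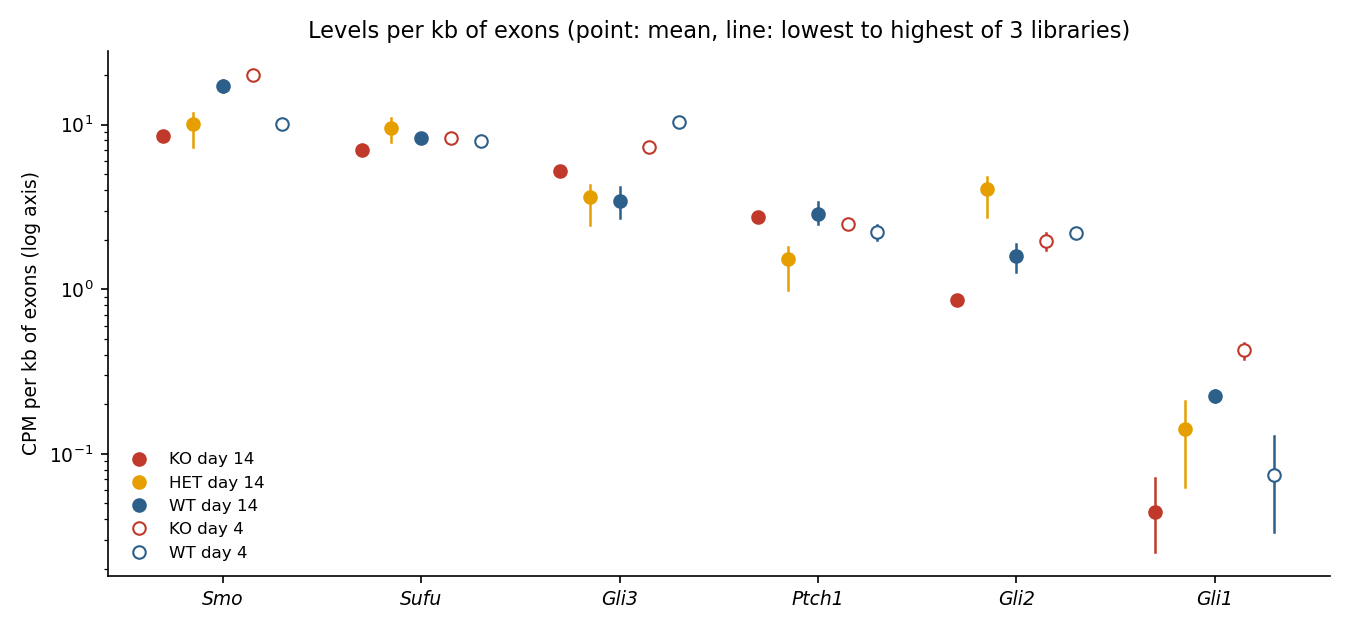
Mean level of each tested Hedgehog gene in CPM per kb of exons (log axis), by group, with a line from the lowest to the highest of 3 libraries; filled points are day 14 and open points day 4. Smo and Sufu lie highest in most groups, Gli1 lies lowest in all, and Gli2 of HET (4.08) stands above Gli2 of the other groups.

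The members did not move as one. At day 14, KO cells had more Gli3 and less Gli1, Gli2, Smo and Sufu than WT cells, so that 1 of the 6 tested members rose and 4 fell (edgeR's quasi-likelihood F test, adjusted by Benjamini-Hochberg over all tested genes, p under 0.05). In that comparison 63.1% of all tested genes were called, 30.9% higher and 32.2% lower, so most genes differed and the count of members is no result by itself. At day 4, Gli1 and Smo were higher in KO and Gli3 was lower, 3 of 6 beside 69.5% of all genes (35.7% higher, 33.8% lower). In HET against WT at day 14, Gli2 was higher and Ptch1 and Smo were lower, 3 of 6 beside 58.3% of all genes (28.3% higher, 29.9% lower). In KO against HET at day 14, Gli3 and Ptch1 were higher and Gli1, Gli2 and Sufu lower, 5 of 6 beside 59.5% of all genes (29.4% higher, 30.1% lower). The 3 comparisons of day 14 share libraries and are not independent of each other.

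Over time the genotypes parted. From day 4 to day 14, 5 of the 6 members fell in KO (Gli1, Gli2, Gli3, Smo and Sufu) and none rose, beside 60.9% of all genes called there (30.8% higher, 30.1% lower). In WT, Gli1 and Smo rose and Gli2 and Gli3 fell, beside 74.6% of all genes (39.7% higher, 34.9% lower). The interaction of genotype and day, which is the KO against WT difference at day 14 minus that at day 4, passed for 4 of 6 members, Gli3 above 0 and Gli1, Gli2 and Smo below it, beside 64.7% of all genes (30.7% above 0, 34.0% below). The median log2 change of the 6 members was -0.56 in KO against WT at day 14 and 0.11 at day 4, against -0.02 and 0.03 over all tested genes. The median size of the interaction was 0.941 on the log2 scale over the 6 members and 0.752 over all tested genes.

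**Figure D2:**
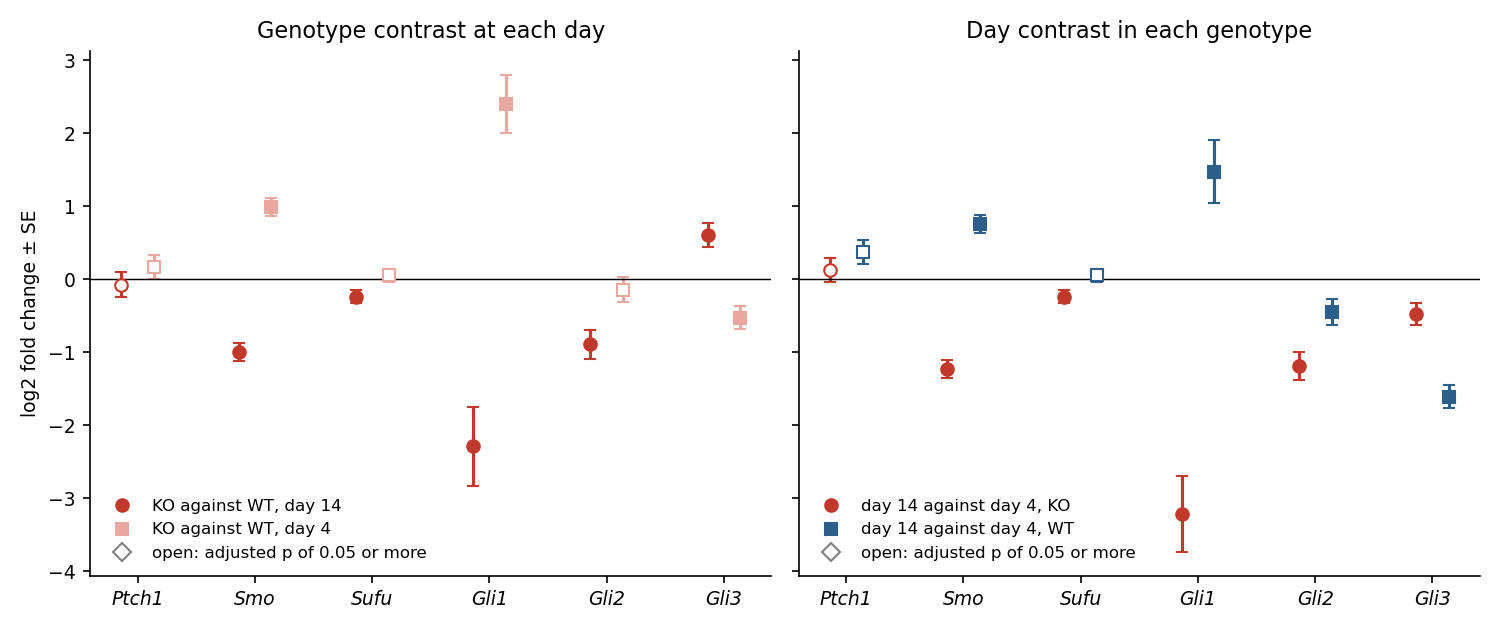
Log2 fold change ± SE of the 6 tested members, KO against WT at day 14 and at day 4 (left) and day 14 against day 4 in KO and in WT (right); filled points passed the threshold. Smo lies at -0.999 and 0.991 in the left panel, Gli1 at -2.29 and 2.40, and Gli3 at 0.61 and -0.53, on opposite sides of 0 at the 2 days.

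The 250 bases before the RefSeq start of Smo, Gli2 and Sufu (GRCm38.p6) are shown because Smo changed sides between the days, Gli2 stood highest in HET and Sufu varied least. Capitals mark CCACCC on either strand, the core of the Gli binding motif GACCACCCA, and the core was added to the search after seeing the data. The Smo window is chr6:29735247-29735496 (plus strand), the Gli2 window chr1:119053620-119053869 (minus strand) and the Sufu window chr19:46396646-46396895 (plus strand), and none of the 3 overlaps a GENCODE exon.
Smo: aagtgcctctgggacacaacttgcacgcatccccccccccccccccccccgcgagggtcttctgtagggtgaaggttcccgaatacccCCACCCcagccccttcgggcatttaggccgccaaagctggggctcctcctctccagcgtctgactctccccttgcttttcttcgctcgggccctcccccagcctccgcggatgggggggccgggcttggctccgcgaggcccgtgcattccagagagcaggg
Gli2: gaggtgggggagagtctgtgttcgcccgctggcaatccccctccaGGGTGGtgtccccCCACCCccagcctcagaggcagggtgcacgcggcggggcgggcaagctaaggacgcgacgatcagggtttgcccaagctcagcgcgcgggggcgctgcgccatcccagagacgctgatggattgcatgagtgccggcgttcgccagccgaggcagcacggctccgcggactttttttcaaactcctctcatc
Sufu: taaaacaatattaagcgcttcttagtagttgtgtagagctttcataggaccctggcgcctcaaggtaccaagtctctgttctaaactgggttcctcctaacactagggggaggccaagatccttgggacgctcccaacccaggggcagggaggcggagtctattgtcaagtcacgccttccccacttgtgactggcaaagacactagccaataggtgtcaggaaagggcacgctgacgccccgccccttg
Of the 7 members, 6 were in the table of promoters, which runs from 250 bases before to 50 after the start. None of the 6 held GACCACCCA, or GACCNCCCA in which 1 base is free, on either strand, and 0.225% and 0.868% of 32851 promoters held them. CCACCC, which lies within GACCACCCA, and within GACCNCCCA only where the free base is A, is short enough to be common (28.1% of promoters). It occurred 2 times in Gli2, once each in Gli3, Hhip and Smo, and not in Ptch1 or Sufu. All 250 bases of the Gli3 window lie in GENCODE exons. The Ptch1 window (chr13:63565736-63565985) lies inside the span of the gene as annotated, so it belongs to an internal start. These matches describe letters in 1 window per gene and say nothing of where Gli factors bind.

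Ptch1 (ENSMUSG00000021466, chromosome 13, 63508328 to 63573598 of GRCm38, minus strand), the ligand receptor and a target gene, was lowest in HET. Its libraries held 37.1, 41.6 and 37.3 CPM in KO, 25.7, 13.9 and 25.6 in HET and 48.1, 38.6 and 35.3 in WT at day 14, and 34.3, 34.4 and 37.2 in KO and 31.3, 34.8 and 28.1 in WT at day 4. No HET library reached any library of another group, while KO and WT overlapped at both days. The HET against WT difference was -0.90 ± 0.17 on the log2 scale (edgeR adjusted p = 0.000348) and the KO against HET difference 0.82 ± 0.17 (edgeR adjusted p = 0.000701). Without HET replicate 2, the lowest library, the HET against WT difference was -0.67 and still passed. Between KO and WT, no difference passed at day 14 (-0.07, 95% interval -0.40 to 0.25, edgeR adjusted p = 0.716) or at day 4 (0.17, -0.15 to 0.49, edgeR adjusted p = 0.377). Ptch1 has the longest exons of the 7 genes, 14185 bases, and with a correction of every library for exon length, chosen after seeing the data, it passed in both, at -0.43 and 0.25. At day 4 it also passed in a fit of the compared groups alone (0.15, edgeR adjusted p = 0.0117). In WT over time Ptch1 stood at 0.37 ± 0.17 (edgeR adjusted p = 0.0546), just outside the threshold. It passed there with upper-quartile scaling (0.53), with no filter on low genes (0.30), with a filter of 1 CPM (0.38), in a fit of the compared groups alone (0.34), without WT replicate 2 of day 4 (0.45) or WT replicate 3 of day 14 (0.46), and with the length correction (0.92). In KO over time it stood at 0.13 (edgeR adjusted p = 0.52), and passed in a fit of the compared groups alone (0.13) and with the length correction (0.24).

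Smo (ENSMUSG00000001761, chromosome 6, 29735503 to 29761365, plus strand), the transducer at the membrane, whose window above holds CCACCC once, changed sides between the days. Its libraries held 51.2, 47.7 and 45.1 CPM in KO, 66.3, 41.1 and 63.4 in HET and 105, 94.3 and 89.1 in WT at day 14. At day 4 they held 113 CPM in each of the 3 KO libraries, against 55.0, 55.4 and 60.3 in WT. KO and WT did not overlap at either day, and they had changed places. The KO against WT difference was -0.999 ± 0.126 at day 14 (edgeR adjusted p = 5.06e-06) and 0.991 ± 0.123 at day 4 (edgeR adjusted p = 2.81e-06), about the same size with the opposite sign, and the interaction was -1.99 ± 0.18 (edgeR adjusted p = 7.53e-08). Over time Smo fell by 1.23 ± 0.13 in KO (edgeR adjusted p = 4.46e-07) and rose by 0.76 ± 0.12 in WT (edgeR adjusted p = 4.7e-05). HET cells were lower than WT by -0.75 ± 0.13 (edgeR adjusted p = 9.61e-05). KO and HET overlapped through HET replicate 2 (-0.25 ± 0.13, edgeR adjusted p = 0.106), and KO was lower without that library (-0.44), with no filter on low genes (-0.23) and with the length correction (-0.30).

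Gli2 (ENSMUSG00000048402, chromosome 1, 118834132 to 119053619, minus strand), the main activator, with CCACCC 2 times in its window, stood highest in HET and lowest in KO at day 14. Its libraries held 5.54, 5.95 and 6.25 CPM in KO, 32.8, 18.9 and 32.5 in HET and 12.9, 11.2 and 8.79 in WT at day 14. At day 4 they held 13.7, 15 and 11.9 CPM in KO and 14.3, 15.2 and 15.4 in WT. The 3 genotypes did not overlap at day 14, where HET was highest and KO lowest, and KO and WT overlapped at day 4. Gli2 rose in HET by 1.36 ± 0.18 over WT (edgeR adjusted p = 8.8e-06), and by 1.57 without HET replicate 2. The KO against WT difference was -0.89 ± 0.20 (edgeR adjusted p = 0.00113) and the KO against HET difference -2.25 ± 0.19 (edgeR adjusted p = 6.16e-08), while at day 4 the KO against WT difference was -0.14 (95% interval -0.48 to 0.19, edgeR adjusted p = 0.471). Over time it fell by 1.19 ± 0.19 in KO (edgeR adjusted p = 5.71e-05) and by 0.45 ± 0.18 in WT (edgeR adjusted p = 0.0353). The WT fall did not pass with upper-quartile scaling (-0.29), with the length correction (-0.28), or without WT replicate 2 or 3 of day 4 (-0.44 each) or WT replicate 2 or 3 of day 14 (-0.47 and -0.31). The interaction was -0.75 ± 0.26 (edgeR adjusted p = 0.0213) and did not pass without KO replicate 1 of day 14 (-0.69), KO replicate 2 of day 4 (-0.66) or WT replicate 1 of day 14 (-0.61).

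Gli3 (ENSMUSG00000021318, chromosome 13, 15463235 to 15730026, plus strand), the main repressor, went against Gli1 and Smo in KO against WT at both days. Its libraries held 49.6, 51.5 and 49.0 CPM in KO, 41.2, 23.4 and 40.0 in HET and 40.0, 32.3 and 26.1 in WT at day 14, and 69.1, 70.4 and 69.3 in KO and 100.0, 98.3 and 102 in WT at day 4. KO lay above all HET and WT libraries at day 14 and below all WT libraries at day 4. The KO against WT difference was 0.61 ± 0.16 at day 14 (edgeR adjusted p = 0.00402) and -0.53 ± 0.15 at day 4 (edgeR adjusted p = 0.00638), with an interaction of 1.14 ± 0.22 (edgeR adjusted p = 0.000339). With the length correction the day 14 difference was 0.37 and still passed. Gli3 fell over time in both genotypes, by 0.48 ± 0.16 in KO (edgeR adjusted p = 0.0154) and by 1.61 ± 0.16 in WT (edgeR adjusted p = 1.88e-07). Gli3 was highest in WT at day 4, where the share of counts in long genes was highest (50.1% to 50.4%). Its lowest library was HET replicate 2, where that share was lowest (38.1%). With the length correction the day 4 difference, both falls and the interaction kept their direction and passed. Any further part of gene length was not tested. KO was also higher than HET (0.52 ± 0.16, edgeR adjusted p = 0.0121), a call that did not pass in a fit of those 2 groups alone (0.51). HET and WT overlapped, at 0.09 (edgeR adjusted p = 0.652), but without HET replicate 2 HET was higher, at 0.31.

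Gli1 (ENSMUSG00000025407, chromosome 10, 127329882 to 127341974, minus strand), the activator that is also a target gene, was scarce and had the largest log2 change of the members between KO and WT at both days. Its libraries held 3, 4 and 9 counts in KO (0.127, 0.183 and 0.356 CPM), 16, 6 and 23 in HET (0.766, 0.315 and 1.04 CPM) and 26, 24 and 22 in WT (1.21, 1.11 and 1.03 CPM) at day 14. At day 4 they held 71, 59 and 86 counts in KO (2.14, 1.89 and 2.37 CPM) and 28, 12 and 4 in WT (0.640, 0.312 and 0.169 CPM). KO and WT were apart at both days and had changed places, as for Smo, though with counts this low the size of the change is imprecise. The KO against WT difference was -2.29 ± 0.54 at day 14 (edgeR adjusted p = 0.000912) and 2.40 ± 0.40 at day 4 (edgeR adjusted p = 4.45e-05), and the interaction was -4.69 ± 0.67 (edgeR adjusted p = 7.64e-06). Over time Gli1 fell by 3.22 ± 0.52 in KO (edgeR adjusted p = 1.66e-05) and rose by 1.47 ± 0.43 in WT (edgeR adjusted p = 0.00533). The WT values of day 4 rest much on WT replicate 1, the highest: without it the day 4 difference was 3.05, the change over time in WT 2.12 and the interaction -5.33. KO was lower than HET by -1.65 ± 0.56 (edgeR adjusted p = 0.0143), although KO replicate 3 lay above HET replicate 2. That call did not pass without KO replicate 1 (-1.37) or HET replicate 3 (-1.26). HET and WT did not differ beyond their spread, at -0.64 (95% interval -1.48 to 0.20, edgeR adjusted p = 0.213).

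The exons of Gli1 share 265 bases, or 5.3%, with an antisense gene on the other strand (Gm47200) and 62 bases with Arhgap9, which had 0 to 5 counts per library. Because strand is not marked by this library kit, the gene of origin of reads in such overlaps cannot be told, and this bears most on the low Gli1 counts. Gm47200 was not among the genes counted, so any of its reads there could be counted only as Gli1.

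Hhip (ENSMUSG00000064325, chromosome 8, 79965851 to 80058006, minus strand), the decoy receptor and target gene, was nearly silent. It had no count in KO, 1 in HET and 4, 1 and 1 counts in the WT libraries of day 14, and no count in KO or WT at day 4. In KO at day 14, 0 counts allow a level of up to 0.042 CPM, against 0.093 ± 0.081 CPM in WT. The limit covers counting error only, and 4 of the 6 WT counts came from 1 library, so no fold is given.

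Sufu (ENSMUSG00000025231, chromosome 19, 46396896 to 46488804, plus strand), the inhibitor of the Gli factors, with no CCACCC in its window, varied least among the tested members, with group means from 53.8 to 73.0 CPM. Its libraries held 53.5, 54.6 and 53.2 CPM in KO, 84.6, 60.0 and 74.3 in HET and 66.3, 64.2 and 59.7 in WT at day 14, and 62.1, 66.3 and 62.3 in KO and 62.3, 61.3 and 59.5 in WT at day 4. The KO libraries of day 14 lay below all 12 others, by a small margin. KO was lower than HET by -0.44 ± 0.09 (edgeR adjusted p = 0.000574) and lower than WT by -0.24 ± 0.09 (edgeR adjusted p = 0.0323). The KO against WT call did not pass without WT replicate 1 (-0.20), WT replicate 2 (-0.23) or KO replicate 1, 2 or 3 of day 14 (-0.23, -0.24 and -0.23), nor with no filter on low genes (-0.19). The fall of 0.24 ± 0.09 over time in KO (edgeR adjusted p = 0.0298) did not pass without any single KO library of either day (-0.21 to -0.26). At day 4 KO and WT stood 0.06 apart (95% interval -0.12 to 0.23, edgeR adjusted p = 0.586), and WT stood 0.05 apart over time (edgeR adjusted p = 0.604), which passed with upper-quartile scaling (0.21) and with the length correction (0.30). HET was 0.20 above WT (edgeR adjusted p = 0.0641), a difference that passed without HET replicate 2 (0.32), with DESeq2 (0.22), with no filter on low genes (0.23) and with the length correction (0.14).

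**Figure D3:**
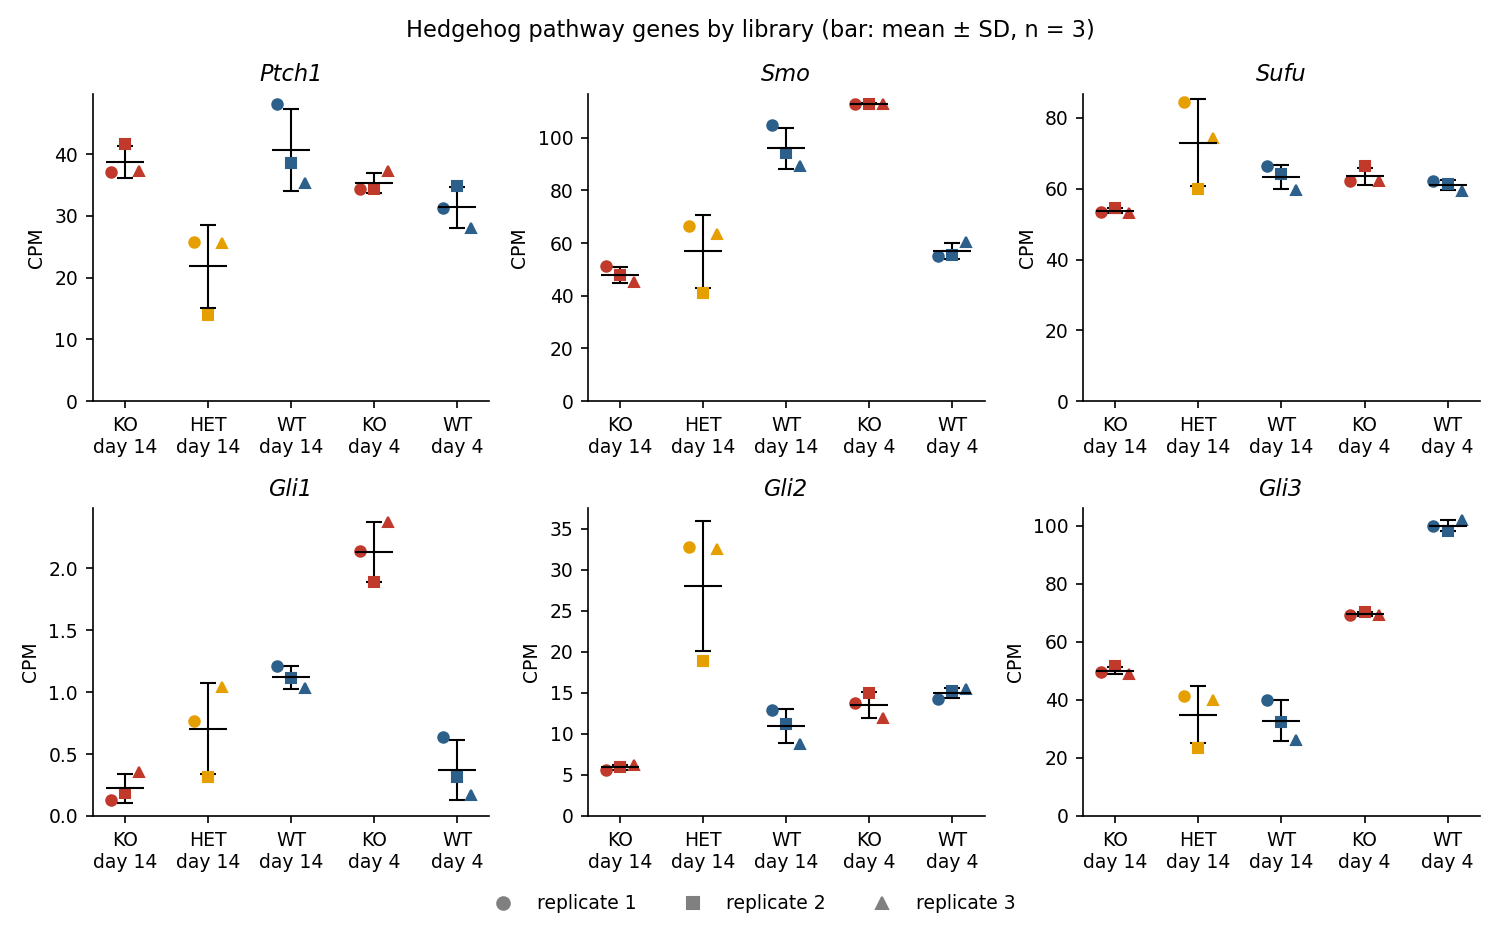
CPM of the 6 tested members in each of the 15 libraries, KO, HET and WT at day 14 and KO and WT at day 4, with the group mean ± SD. HET replicate 2 is the lowest HET library for every member, and KO and WT change places between the days for Smo, Gli1 and Gli3.

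Of 54 other pathway genes, in 6 lists, 48 were tested. In KO against WT, 18 were higher and 20 lower at day 14 with a median log2 change of -0.03, and 20 higher and 16 lower at day 4 with a median of 0.08, both near the medians of all tested genes given above. Of all tested genes, 30.9% were higher and 32.2% lower in KO at day 14, 35.7% and 33.8% at day 4, and 28.3% and 29.9% in HET, so most genes were called, and the counts of each list below are read against these shares and were not tested against them. With upper-quartile scaling, which moved the median of all genes by 0.10 at day 4, the day 4 split was 25 higher and 13 lower. In HET against WT, 16 were higher and 21 lower, with a median of -0.12.

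The ligands were nearly absent. Shh had no count in any library, and Dhh had 0, 1 and 0 counts in KO, 2, 0 and 1 in HET and 17, 17 and 16 in WT at day 14. At day 4, Dhh had 7, 6 and 2 counts in KO and 5, 3 and 1 in WT (0.81 ± 0.68, edgeR adjusted p = 0.282). Ihh, which was not tested, had 4 counts over the KO, 10 over the HET and 8 over the WT libraries of day 14, and 26 over the KO and 19 over the WT libraries of day 4. At day 14, Dhh was called lower in both mutant genotypes (edgeR adjusted p = 2.37e-05 for KO and 0.000125 for HET). Dhh passed the expression filter only through the WT libraries of day 14, where it was high. Its calls against WT are therefore not independent of that filter. Dhh was 54.9 times lower in KO (95% interval of counting error 9.43 to 2220) and 16.1 times lower in HET (5.18 to 80.6). Exons of Dhh overlap Rhebl1 on the same strand and an antisense gene, so its few counts are uncertain. Among 4 tested genes of ligand processing and release, Disp1, which releases the ligand from cells, was higher in KO at day 14 by 0.76 ± 0.15 (edgeR adjusted p = 0.0003), and Scube3 was lower in KO by -2.33 ± 0.37 and in HET by -2.49 ± 0.39 (edgeR adjusted p = 3.25e-05 and 2.73e-05). Scube1 had 1 count in KO, 3 in HET and 54 in WT at day 14, and was called lower in both (edgeR adjusted p = 9.05e-05 and 0.000385). Like Dhh, Scube1 passed the expression filter only through WT at day 14, so the same limit holds for its calls.

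The co-receptors were on the low side in both mutant genotypes at day 14. In KO, 3 of the 5 were lower than in WT and none was higher, and in HET all 5 were lower, with median log2 changes of -1.02 and -1.21. At day 4, 3 were lower in KO and 1, Cdon, was higher, with a median of -1.04. Cdon, which binds the ligand beside Ptch1, held 21.7, 23.1 and 22.3 CPM in KO, 30.8, 18.8 and 29.9 in HET and 71.3, 56.9 and 55.8 in WT at day 14, and 77.7, 75.5 and 71.7 in KO and 27.5, 26.9 and 27.7 in WT at day 4. KO and WT thus changed places for Cdon as they did for Smo, with differences of -1.45 ± 0.14 at day 14 (edgeR adjusted p = 1.94e-07) and 1.46 ± 0.13 at day 4 (edgeR adjusted p = 6.82e-08). Gas1, another co-receptor, was lower at day 14 in KO by -1.02 ± 0.06 and in HET by -1.04 ± 0.06 (edgeR adjusted p = 1.38e-09 and 1.39e-09). Lrp2, a large endocytic receptor, held 0.719, 0.421 and 0.586 CPM in HET against 11.0, 10.3 and 8.74 in WT (-4.10 ± 0.33, edgeR adjusted p = 2.27e-09), while KO, at 10.1, 9.33 and 11.6, overlapped WT. At day 4, Lrp2 averaged 1.45 CPM in KO and 13.8 in WT (-3.25 ± 0.21, edgeR adjusted p = 5.81e-10), and Boc, a relative of Cdon, 1.92 in KO and 14.6 in WT (-2.92 ± 0.15, edgeR adjusted p = 2.53e-11), though Boc of KO and WT overlapped at day 14.

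Of the 14 cilium and trafficking genes, 3 were higher and 6 lower in KO at day 14, and 10 higher and 2 lower at day 4, with medians of -0.07 and 0.38. The day 14 count is near the share of all tested genes called there, 63.1%. Gpr161, a ciliary receptor that restrains the pathway through cyclic AMP, was at day 14 higher in KO by 1.80 ± 0.11 and in HET by 1.06 ± 0.11 (edgeR adjusted p = 1.4e-09 and 7.68e-07). The cilium motor gene Dync2h1 was higher in KO by 0.99 ± 0.17 (edgeR adjusted p = 0.000125) and Arl13b, a ciliary GTPase, higher in HET by 0.42 ± 0.07 (edgeR adjusted p = 4.47e-05). Kif7, a kinesin that regulates Gli factors at the cilium tip, was lower in KO by -0.90 ± 0.11 and in HET by -0.93 ± 0.11 (edgeR adjusted p = 2.58e-06 and 2.17e-06). Iqce and Evc2, which act with Smo at the cilium base, were lower, Iqce in KO by -0.74 ± 0.08 and Evc2 in HET by -0.75 ± 0.07 (edgeR adjusted p = 7.99e-07 and 1.32e-07).

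Of 14 genes for kinases, Gli degradation and Smo regulators, 9 were higher and 4 lower in KO at day 14, and 3 higher and 8 lower at day 4, with medians of 0.47 and -0.19. Csnk1d, a casein kinase, was higher at day 14 in KO by 0.77 ± 0.04 and in HET by 0.53 ± 0.04 (edgeR adjusted p = 1.29e-10 and 1.04e-08). Spop, an adaptor for Gli degradation, was higher in KO by 0.64 ± 0.05 (edgeR adjusted p = 1.49e-08), and Csnk1a1, a casein kinase of Gli and Smo, in HET by 0.67 ± 0.05 (edgeR adjusted p = 5.15e-09). Grk2, a kinase of Smo, was lower in KO by -0.66 ± 0.04 and in HET by -0.63 ± 0.04 (edgeR adjusted p = 1.87e-09 and 3.83e-09). Btrc, which marks Gli factors for processing, was lower in KO by -0.49 ± 0.08 (edgeR adjusted p = 4.91e-05), and Prkaca, a catalytic subunit of protein kinase A, lower in HET by -0.41 ± 0.06 (edgeR adjusted p = 1.36e-05).

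The commonly cited target genes went both ways, with 5 of 10 tested higher and 4 lower in KO at day 14, and 6 higher and 2 lower at day 4, with medians of 0.54 and 0.87. In HET against WT, 4 were higher and 5 lower, with a median of -1.44. Foxf1, a forkhead factor, held 0.761, 0.732 and 1.11 CPM in KO, 3.93, 5.99 and 4.24 in HET and 71.7, 62.8 and 63.9 in WT at day 14, a difference of -6.23 ± 0.20 for KO and -3.82 ± 0.13 for HET (edgeR adjusted p = 4.15e-14 and 9.57e-13). It was also lower in KO at day 4 (-4.34 ± 0.13, edgeR adjusted p = 8.33e-14), when Gli1 and Smo were higher. Bmp4, a growth factor, was lower in KO at day 14 by -3.28 ± 0.13 (edgeR adjusted p = 8e-12), and at day 4 KO and WT overlapped (-0.13 ± 0.14, edgeR adjusted p = 0.44). The cyclin gene Ccnd1 was higher at day 14 in KO by 1.33 ± 0.10 and in HET by 0.84 ± 0.11 (edgeR adjusted p = 2.52e-08 and 5.71e-06), and Ccnd2 was higher in HET by 0.60 ± 0.10 (edgeR adjusted p = 9.85e-05). Foxd1 was higher in KO by 1.07 ± 0.07 (edgeR adjusted p = 4.23e-09), and its HET against WT difference was -1.37 ± 0.08 (edgeR adjusted p = 6.14e-10). These genes answer to other signals as well.

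**Figure D4:**
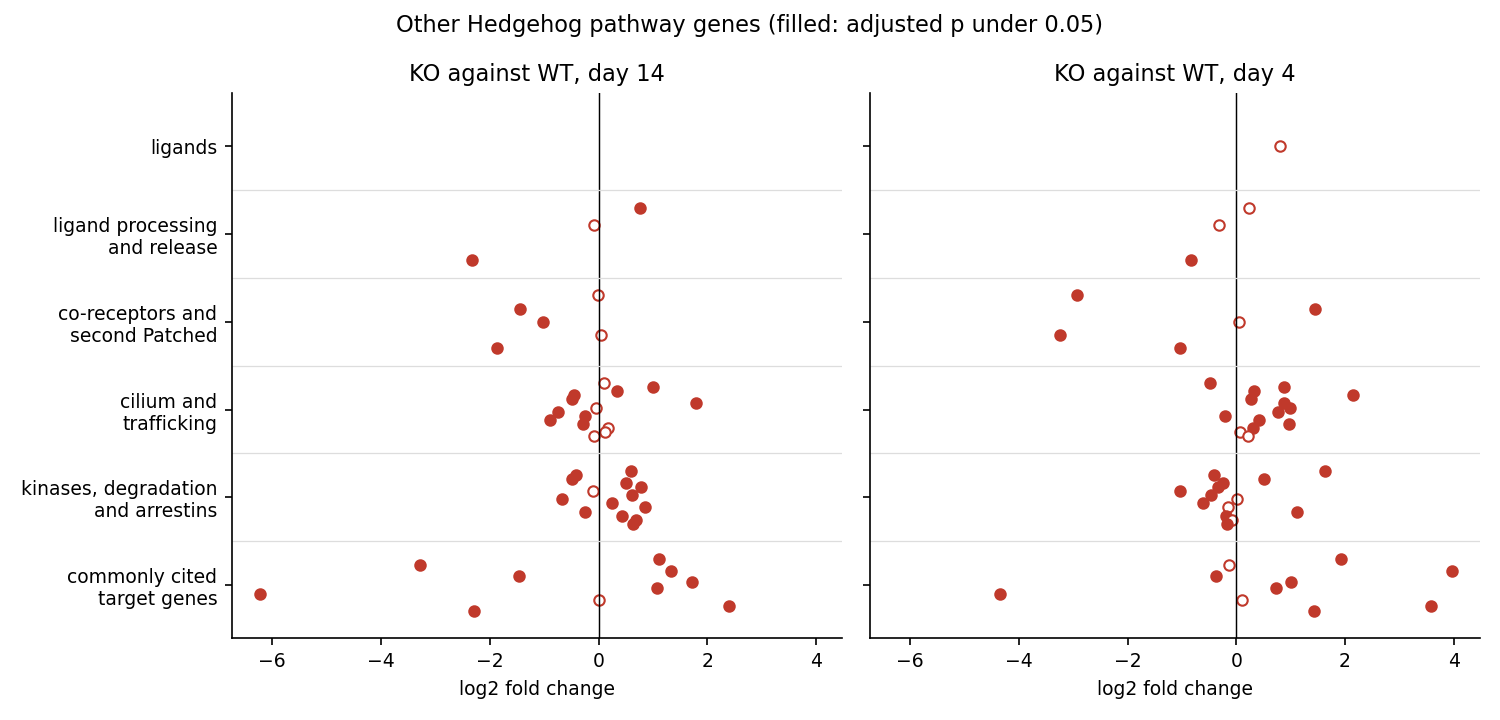
Log2 fold change, KO against WT, of the other pathway genes by list at day 14 (left) and day 4 (right); filled points passed the threshold, and genes with at most 3 counts over a group are left out. The kinase list has 9 genes higher and 4 lower at day 14 and 3 higher and 8 lower at day 4, beside 63.1% and 69.5% of all tested genes called, and Foxf1 is the lowest point of both panels.

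Across the 15 libraries and among 10101 protein-coding genes with at least 10 CPM in a group, the gene most like Smo was Cdon (Pearson r of log2 CPM 0.99), followed by Hspa12a (0.957) and Kalrn (0.944). Scaf8 (0.992) and Tut7 (0.992) were among the genes most like Gli3, and Gli2 was most like Piga (0.951), Col5a1 (0.95) and Lmbr1 (0.943), and Ptch1 most like Plxnb2 (0.928), Alpk1 (0.909) and Wdr90 (0.905). Gli1 was most like Uck1 (0.915), Dlg5 (0.904) and Tead3 (0.902), and Sufu most like Mtmr6 (0.918), Gli2 (0.877) and Stau1 (0.874). Among the members themselves the closest pairs were Gli2 with Sufu (0.877) and Gli1 with Smo (0.872), and the most negative value was that of Gli2 with Ptch1 (-0.574). Gli3 stood at -0.075 with Gli1 and at 0.043 with Smo. The libraries form 5 groups and share depth and the length differences given above, so these values describe likeness of pattern across 5 groups more than across 15 independent points.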

How the data were processed

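RNA was measured as raw counts per gene, which the authors deposited in 1 table for each library. The submitters' processing notes name TopHat2 2.1.0, HTSeq, DESeq2 and the build GRCm38.p4. For HTSeq and DESeq2 no version, and for the counting no annotation release or strand setting, is given in the sources used here. GENCODE M21 gave symbols, coordinates and exon lengths to 46091 of 46603 IDs. The other 512 held 0.051% of counts.

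All 15 libraries were fitted together with edgeR 4.0.16 (R 4.3.3): filterByExpr, TMM scaling, the robust quasi-likelihood F test, Benjamini-Hochberg adjustment over 15296 genes and a threshold of 0.05, in 7 comparisons. The SE is the Wald SE with a floor at counting error. CPM uses TMM-scaled library sizes. CPM per kb divides by the union of exons. The limit for a group without counts is 3 counts, and intervals are at 95%. The members and lists were chosen with earlier results of these data known. Named genes are all members, from each list up to 2 higher and 2 lower with the smallest adjusted p in KO or HET against WT at day 14, and 3 genes most like each member, of which 1 is not reported here. Day 4 values of Cdon, Boc, Lrp2, Dhh, Foxf1 and Bmp4, the Shh and Ihh counts and the single marker genes were added after seeing the data.

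On simulated counts for KO against WT at day 14 (15005 genes), 78%, 98%, 100% and 100% of genes changed 1.5, 2, 4 and 8-fold were recovered, and 11 of 14805 unchanged genes were called. The simulation changed only 200 genes, each with a mean of at least 20 counts in WT, and left all others equal. In the data 63.1% of tested genes were called, so these rates do not carry over to such wide change or to genes with fewer counts. The alternatives were DESeq2 1.42.0, RLE and upper-quartile scaling, 2 other filters, the replicate number as a block, the compared groups alone and each library left out; a per-library spline for exon length (5 degrees of freedom) was chosen after seeing the data.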

Additional observations from a re-analysis of the deposited data

Results flagged for a closer look

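For 4 members the KO against WT difference itself differed between day 14 and day 4, by the interaction term of edgeR's quasi-likelihood fit with Benjamini-Hochberg adjustment over all genes. The interaction was -4.69 for Gli1, -1.99 for Smo, -0.75 for Gli2 and 1.14 for Gli3 on the log2 scale, with the KO and WT levels of both days given above. Such an interaction was called for 64.7% of all tested genes.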

How the results depend on the processing

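Over the 7 comparisons, the member values were recomputed 335 times under another setting and 288 times with a library left out. Of these, 307 and 258 kept direction and side of the threshold, 4 and 20 no longer passed, 22 and 6 newly passed, and 2 and 4 changed sign. The sign changes were all in differences that did not pass: Ptch1 in KO against WT at day 14 (-0.166 to 0.065 with a library left out, the highest without WT replicate 1), Gli3 in HET against WT (-0.005 with the exon length correction, -0.042 to 0.307 with a library left out, below 0 without WT replicate 3 or HET replicate 1 or 3), and Sufu in WT over time (-0.019 with no filter beyond 1 count). The cause was not tested. The Smo and Gli1 calls between KO and WT at both days kept their direction and passed in every setting tried, as did their interactions.

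Members called in HET against WT numbered 3 to 5 with a library left out (5 without HET replicate 2), and in KO against HET 4 to 6. All genes called ran from 8167 to 10083 and from 8387 to 9554 there. In a fit of KO and HET alone, where Gli1 fell under the filter, 3 of 5 tested members were called, beside 7333 of 13840 genes. Upper-quartile scaling moved the median log2 change of all genes by 0.158 in WT over time and by -0.138 in the interaction, and then 4 members rose and 1 fell in WT over time, against 2 and 2. Of all 15296 tested genes, 7034 then rose and 4477 fell in WT over time, against 6075 and 5335 in the main fit. In the interaction, Sufu also passed with upper-quartile scaling (-0.432), with the filter of 1 CPM (-0.313), in a fit of the compared groups alone (-0.294) and without WT replicate 3 of day 14 (-0.331), which makes 5 of 6 members called. In the first 3 of these settings 9972 of 15296, 9518 of 13699 and 10745 of 15185 genes were called. With the length correction both Ptch1 (-0.676) and Sufu (-0.508) passed, 6 of 6, beside 10082 of 15247 genes.

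The labels number replicates 1 to 3 in each group. Over 30 pairs of same-numbered libraries from different groups, the correlation of their deviations from the group mean ran from -0.15 to 0.179, with 1 pair above 0.1, so the numbers were not taken as pairing the samples. With the replicate number as a block the members called were 5, 3, 3 and 5 for KO against WT at day 14 and day 4, HET against WT and KO against HET, 4 and 5 over time in WT and KO, and 4 in the interaction, the same counts as without it. In the same order, 9551, 10538, 8783, 8999, 11310, 9241 and 9803 of all 15296 genes were called with the block. At 3 to 86 counts per library, depth limits Gli1, and Hhip could not be tested.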
